A study of Mus musculus with 6 samples.

Results

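The transcripts described here are the 4 members of a small group that the array design places at the start of mouse chromosome 9, at the end of the assembled sequence next to the centromere. They are ENSMUST00000099050 (predicted gene Gm10720), ENSMUST00000099046 (Gm10718), ENSMUST00000099042 (Gm10716) and ENSMUST00000099035 (Gm10715). They were selected on their position and on their rise at the higher dose of maternal folic acid (FA) in both sexes, so their dose differences are given as a description, with no test. They were measured by 5 of the 55681 probes on the array, with 2 probes for Gm10720 and 1 probe for each of the other members, and each probe had 1 spot per array. All 5 probes were well above background on all 6 arrays, and none of their spots was saturated or marked as an outlier.

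Mouse chromosomes carry their centromere at one end. Beside it lies pericentromeric heterochromatin, which is built of long tandem arrays of the major (gamma) satellite repeat and is normally kept silent by DNA methylation, repressive histone methylation and the Cbx (heterochromatin protein) family. RNA of these repeats is known from early development, from cycling cells and from cells that have lost such silencing, and folic acid feeds the supply of methyl groups that DNA and histone methylation draw on.

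RNA came from C57BL/6J pups on postnatal day 1. All dams ate a purified diet of the AIN-93G type, with amino acids in place of protein, from 1 week before mating and through pregnancy, and the groups differ in its FA content, 2 mg or 20 mg per kg. For each sex, 1 array held the 2 mg FA group and 2 arrays held the 20 mg FA group, and every array received pooled RNA of 3 pups, each pup from a different dam. The titles name the cerebellum as the tissue, while 1 label field names the whole brain; 11 of 12 cerebellar marker genes and 8 of 8 forebrain marker genes were well above background on the female 2 mg array, so the markers do not settle it. The labels state that RNA extraction for the 20 mg FA group was repeated from another batch, without saying for which array.

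The arrays differed in brightness. The median processed signal, which is the background-subtracted brightness of a spot before any scaling between arrays, lay between 39 and 162 on 5 arrays and was 5.14 on the second array of the female 20 mg FA group, called the dim array labelled female below. There 23.3% of the probes passed as well above background, and 51.1% to 71.9% did on the others. On that array neither probe of Xist, the RNA of the inactive X chromosome, was well above background, with signals of 5.22 and 8.18, whereas both were on the other female arrays, so it does not show its labelled sex by Xist. Ddx3y, a Y-linked gene, was not well above background there either, and the signal of the Y-linked Eif2s3y was 48.6 there, with 46.5 on female 20 mg replicate 1 and 886 to 9240 in males. After the scaling described below, Eif2s3y had a log2 value of 10.12 there, 3.32 and 4.04 on the other female arrays and 10.62 to 11.99 in males, so these transcripts leave the sex of that pool unsettled. Values of female 20 mg replicate 1 alone stand beside female means below. Slide 1 carries both 2 mg arrays with female 20 mg replicate 1. Slide 2, scanned on an earlier day, carries the dim array labelled female with male 20 mg replicate 1, and slide 3 carries male 20 mg replicate 2.

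The probe sequences show what the members have in common. Those of Gm10720 (second probe), Gm10718 and Gm10715 are the same 60-base stretch with a few substitutions, although the last lies 34.5 kb from the first member probe, and capitals mark the bases that differ from the second Gm10720 probe.
Gm10720 second probe, chr9:3004200-3004259: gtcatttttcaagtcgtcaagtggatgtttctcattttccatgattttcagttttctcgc
Gm10718, chr9:3024224-3024283: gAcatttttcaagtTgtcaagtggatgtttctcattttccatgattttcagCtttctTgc
Gm10715, chr9:3038257-3038316: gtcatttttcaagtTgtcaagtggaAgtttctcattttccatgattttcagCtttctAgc
Each of the last pair differs from the first at 4 of 60 bases (93.3% identity), and they differ from each other at 3 (95% identity). Positions are those of the array design in build mm9, on the plus strand for all members.

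The first Gm10720 probe and the Gm10716 probe make up a second family, and they share it with a transcript that maps elsewhere. Gm10800 (ENSMUST00000099683) is placed on chromosome 2, on the minus strand, far from the centromere. The next lines show these probes because they are the ones in which sequence and position part ways, and capitals mark the bases that differ from the first Gm10720 probe where they overlap it.
Gm10720 first probe, chr9:3003722-3003781: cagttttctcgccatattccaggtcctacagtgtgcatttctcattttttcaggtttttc
Gm10716, chr9:3030720-3030779: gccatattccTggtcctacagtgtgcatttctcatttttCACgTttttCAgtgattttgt
Gm10800 second probe, chr2:98507014-98507072: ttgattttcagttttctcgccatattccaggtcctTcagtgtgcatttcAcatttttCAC
The Gm10716 probe overlaps the first Gm10720 probe over 50 bases with 7 mismatches (86% identity) and has an unbroken run of 28 bases in common with it. The second Gm10800 probe overlaps it over 52 bases with 5 mismatches (90.4% identity) and shares a run of 27 bases. It also shares a run of 19 bases with the second Gm10720 probe, which joins the 2 families.

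The first probe of Gm10800 is more distant, and its longest run in common with a member, 12 bases shared with the second Gm10720 probe, is in capitals.
Gm10800 first probe, chr2:98507096-98507154: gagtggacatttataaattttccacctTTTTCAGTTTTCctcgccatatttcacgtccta
Across all 55681 probes of the array, a run of 18 bases or more from a member probe was found in the 5 member probes and in 1 Gm10800 probe and in no other, on either strand. With runs of 16 bases, 2 other probes matched on the same strand and 0 on the other strand. All 5 member probes hold the word TTTCTCATTT, which 0.0862% of all probes hold on either strand. The array's own annotation lists ENSMUST00000099042, a member, beside the first Gm10800 probe, and ENSMUST00000099046, another member, beside the second. It also lists Gm10800 and 1 other member beside the second Gm10720 probe. The member probes were 60% to 65% A and T, against a median of 56.7% over all probes. A probe of this family may therefore bind RNA from more than one of these places, which was not measured. The signal of a member is reported under its name without being assigned to its locus. The letters were not compared with a satellite consensus, which was not used here.

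On the female 2 mg array the second Gm10720 probe had a processed signal of 716, and it had 4855 on female 20 mg replicate 1 and 8929 on the dim array labelled female. In males it had 1469 at 2 mg, then 5583 and 3502 at 20 mg in replicate order. The 2 mg array was the lowest array of its sex, and all 4 arrays at 20 mg were above both 2 mg arrays. The first Gm10720 probe had 1048, 5193 and 12800 on the 3 female arrays in the same order, and 2041, 6965 and 4149 on the 3 male arrays, again with no overlap between the doses.

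Gm10718 had a processed signal of 398 on the female 2 mg array, with 2772 and 4199 on the female 20 mg arrays in replicate order. In males it had 794 at 2 mg, then 2472 and 2229 at 20 mg. Gm10716 had 647, 3360 and 6405 on the female arrays and 1249, 2943 and 2041 on the male arrays, and Gm10715 had 239, 2235 and 2201 on the female arrays and 484, 1223 and 1877 on the male arrays. For each of the 5 probes, the signal was thus higher on every 20 mg array than on either 2 mg array before any scaling. The members were chosen for such a rise, so nothing is read from this order. Its share over all probes was not counted.

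**Figure D1:**
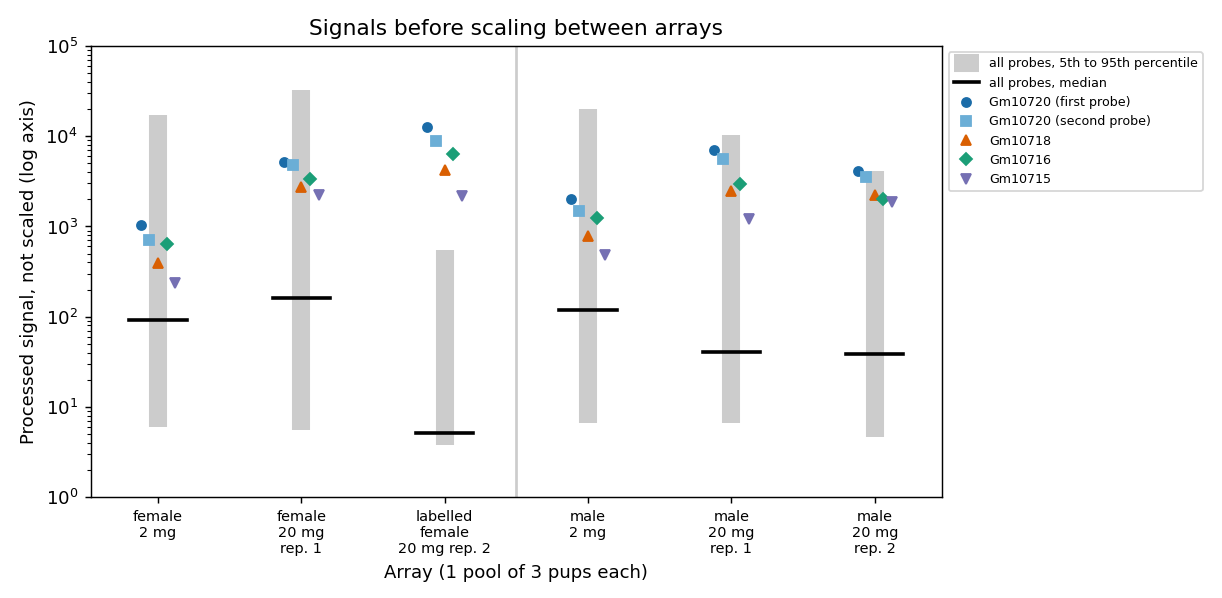
Processed signal (log axis, not scaled between arrays) of the 5 member probes on each array, with the 5th to 95th percentile of all probes as a grey bar and their median as a black line. The median of all probes is lowest, at 5.14, on the dim array labelled female, where 4 of the 5 member probes have their highest signal.

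These rises ran against the brightness of 3 of the 4 arrays. Over the 12408 probes well above background on all arrays, the median ratio to the 2 mg array of the same sex was 1.83 on female 20 mg replicate 1, 0.035 on the dim array labelled female, 0.58 on male 20 mg replicate 1 and 0.189 on male 20 mg replicate 2. The ratios of the member probes lay between 4.96 and 9.36, between 9.22 and 12.5, between 2.36 and 3.8 and between 1.63 and 3.88 on these arrays. On the dim array labelled female, 0.693% of those 12408 probes had a ratio above 1, and all 5 member probes did. The members accordingly rose in rank. As a percentile among all probes, they stood at 61.1 to 75.5 on the female 2 mg array and at 66.3 to 79.8 on the male one. At 20 mg they stood at 76.4 to 83.4 on female replicate 1, at 79.9 to 92.9 on male replicate 1, at 91 to 95 on male replicate 2 and at 98.2 to 99.7 on the dim array labelled female.

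Quantile normalization, the scaling of the study's methods, turns such ranks into log2 values, and values below 10 on the linear scale were raised to 10. On this log2 scale the second Gm10720 probe had 8.37 on the female 2 mg array, 10.14 on female 20 mg replicate 1 and 16.16 on the dim array labelled female. In males it had 9.12 at 2 mg and 11.9 and 12.74 at 20 mg. The mean of the 20 mg arrays was 12.32 ± 0.59 (SD, n = 2) in males, 9.2-fold above the 2 mg array, and 13.15 ± 4.25 (SD, n = 2) in females, 27.4-fold above it. The female mean joins a 3.4-fold and a 220-fold difference and describes neither array.

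The first Gm10720 probe had log2 values of 8.9, 10.23 and 16.54 on the female arrays and of 9.6, 12.29 and 12.97 on the male arrays. Gm10718 had 7.58, 9.36 and 15.35 on the female arrays and 8.24, 10.66 and 12.07 on the male arrays. Gm10716 had 8.24, 9.63 and 15.79 on the female arrays and 8.89, 10.92 and 11.92 on the male arrays. Within a sex the doses did not overlap for these members, which were chosen for such a rise. The dim array labelled female was highest for each. Gm10715 had 6.88, 9.05 and 14.69 on the female arrays and 7.56, 9.62 and 11.79 on the male arrays, with the same order of arrays.

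**Figure D2:**
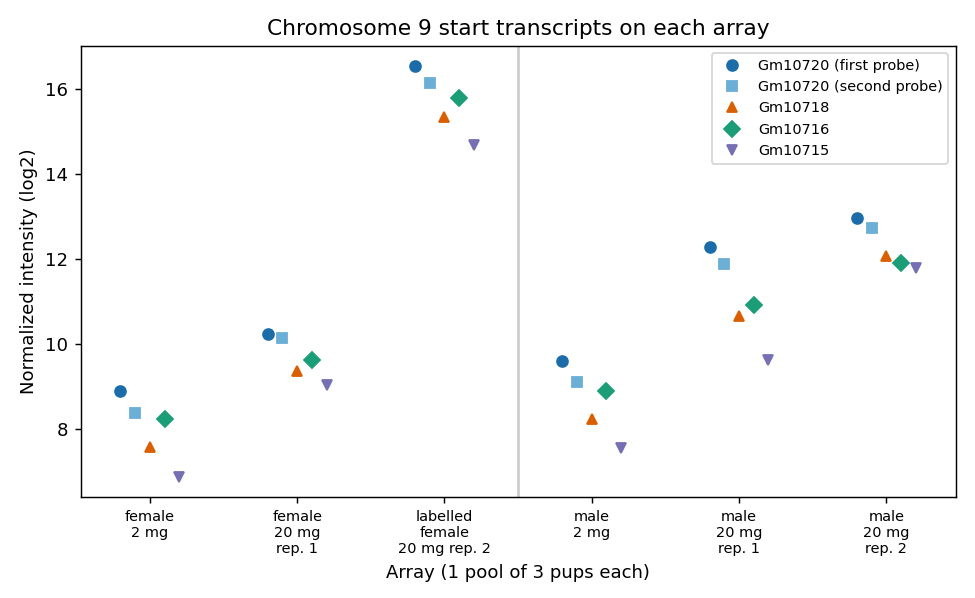
Normalized intensity (log2) of the 5 member probes on each of the 6 arrays, with females to the left of the line and males to the right. Each point is 1 probe on 1 pool of 3 pups, and the 2 mg array is lowest in each sex for every probe, with values from 6.88 to 9.6 at 2 mg and from 9.05 to 16.54 at 20 mg.

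As log2 differences from the 2 mg array of the same sex, the member probes rose by 1.34 to 2.17 on female 20 mg replicate 1 and by 7.55 to 7.81 on the dim array labelled female. In males they rose by 2.03 to 2.78 on replicate 1 and by 3.03 to 4.23 on replicate 2. In folds these are 2.53 to 4.5, 188 to 224, 4.08 to 6.88 and 8.17 to 18.7. Among all probes, 1.47%, 24.4%, 5.69% and 7.42% were higher by at least 2.5-fold on these 4 arrays in turn. The first Gm10720 probe, at 2.53-fold on female 20 mg replicate 1, was the one nearest the 2.5-fold threshold of the study's methods, followed by Gm10716 at 2.63-fold on the same array. The mean log2 differences were 2.53 to 3.2 in males, with an SD between the arrays of 0.48 to 1.54, and 4.47 to 4.99 in females, with an SD of 3.99 to 4.46, so the female mean difference is close to the spread between its own arrays.

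By the fold rule (mean difference of at least 2.5-fold, after a filter that drops probes with little variation over the arrays), all 4 members were higher at 20 mg in males, where 1.42% of all probes were, and all 4 in females, where 8.65% were. All 4 also passed on every 20 mg array taken alone, as 14 of all 55681 probes did (0.0251%), or 0.0725% of the 12408 probes well above background on all arrays. Nothing is read from these shares, because the members were chosen by this contrast. Of those 14 probes, 5 were the member probes, 2 were the Gm10800 probes and 7 belonged to other genes and transcripts, 2 of which were well above background on all arrays. Leaving out the dim array labelled female, 21 probes (0.0377%) passed on the 3 remaining arrays at 20 mg, the 5 member probes among them. When the other 5 arrays were normalized anew without it, 3 of the 4 members passed in females. The log2 difference there was 1.31 to 2.27 over the member and Gm10800 probes. The lowest value, 1.31, was that of the first Gm10720 probe, while the second Gm10720 probe had 1.76.

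**Figure D3:**
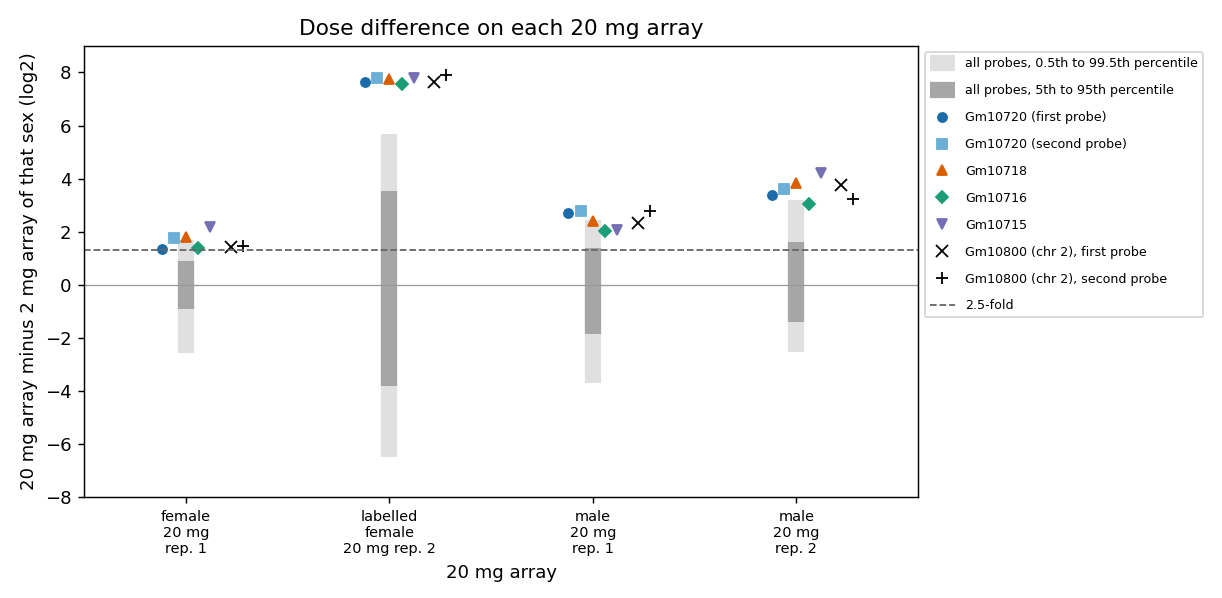
Log2 difference between each 20 mg array and the 2 mg array of its sex for the 5 member probes and the 2 Gm10800 probes. Grey bars show the spread of all probes, and the dashed line is 2.5-fold; the member probes lie above the line on all 4 arrays, from 1.34 to 2.17 on female replicate 1 up to 7.55 to 7.81 on the dim array labelled female.

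Slide and dose are largely tied in these arrays. On slide 1, the slide that holds both doses, female 20 mg replicate 1 was above the female 2 mg array by 1.34 to 2.17 and above the male 2 mg array by 0.63 to 1.49 on the log2 scale. With dose and sex as terms, the difference over both sexes was 3.5 to 4.06, and with slide as a further term it was 0.02 to 0.73. In the latter fit the sex term is drawn from slide 1 and slide 2 together, and on slide 2 the array labelled female was above the male array by 4.25 to 5.07, whereas at 2 mg the female array was below the male one. Slides 2 and 3 hold no 2 mg array, so their part in the larger differences cannot be told apart from that of dose.

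The 2 mg arrays differed between the sexes as well. On slide 1, the processed signals of the member probes were 1.93 to 2.05 times as high on the male 2 mg array as on the female one. After normalization the male array was higher by 0.65 to 0.75 on the log2 scale, or 1.57-fold to 1.68-fold, and 4.1% of all probes were higher by at least 0.65. With 1 pool per sex at 2 mg, this difference has no replicate check.

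The member probes moved together over the arrays, as probes with shared sequence can. Pearson's r between their log2 values was 0.98 to 0.998 over the 10 pairs, across 6 arrays that include the dim array labelled female, which is a description only. The genes most like the mean of the members were sought among 14748 probes that varied over the arrays. The first probe of Gm10800 came first (r = 0.9993), and its second probe ranked 6 (r = 0.9951). Between them came Myh14 (r = 0.9967), a non-muscle myosin heavy chain, and Slc25a10 (r = 0.996), the mitochondrial dicarboxylate carrier. Acsl6 (r = 0.9958), an acyl-CoA synthetase of the brain, and Atxn7l3 (r = 0.9953), a subunit of a histone deubiquitinating module, followed these. Slc25a10 was well above background on 2 of the 6 arrays, Acsl6 on 3 and Myh14 on 4, while Gm10800 and Atxn7l3 were on all 6. Myh14 had log2 values of 4.33, 5.12 and 8.02 on the female arrays and 4.82, 5.62 and 6.37 on the male arrays, which is the same order at smaller steps. In all, 722 of the 14748 probes had an r of at least 0.9, and the arrays share their dimness with this order, since the lowest median signals, 5.14, 39 and 40.9, are those of the arrays where the members are highest after scaling. The part of this in the members' normalized values was not tested.

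Gm10800, the chromosome 2 transcript with the shared sequence, followed the members. Its first probe had processed signals of 504, 2719 and 5114 on the female arrays and of 958, 2764 and 2518 on the male arrays, and its second probe had 945, 5148 and 13970 and then 1993, 7193 and 3623. Both probes were higher on every 20 mg array than on either 2 mg array. The share of all probes with this order was not counted, so nothing is read from it. Their log2 differences were 1.44 and 1.47 on female 20 mg replicate 1, 7.64 and 7.89 on the dim array labelled female, 2.33 and 2.78 on male replicate 1 and 3.76 and 3.22 on male replicate 2. Averaged over the sexes, the limma differences were 3.79 ± 1.17 (SE) and 3.84 ± 1.12 (SE), with adjusted p = 1 for both in the fit across 37211 probes, in which 0 probes (0%) were called and 145 had an unadjusted p under 0.05. Without the dim array labelled female, the differences were 2.22 and 2.16. Without female 20 mg replicate 1, which leaves the dim array as the lone female array at 20 mg, the differences were 5.36 and 5.49. In each of these fits with an array left out, only the male 20 mg group held more than 1 array. No call or lack of a call is therefore read from either. By sequence, the first Gm10800 probe shares a run of at most 12 bases with a member probe, and the second 27. The array's annotation lists a member beside each Gm10800 probe, and Gm10800 beside the second Gm10720 probe. The Gm10800 probes are therefore not taken as an independent measure of the members. Whether they bind the same RNA was not measured.

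By the fold rule, the nearest probes of other sequence were higher about as often as all probes in females, and 0 were higher in males. No other probe of the array starts within the first 100 kb that hold the members, so the neighbours are those from 3.1 to 10 Mb of chromosome 9, where 77 probes lie. Of these, 0 were higher and 2 lower by the fold rule in males, where 1.42% of all probes were higher and 2.17% lower. In females 7 (9.09%) were higher and 9 (11.7%) lower, where 8.65% of all probes were higher and 10.3% lower. Their median log2 difference was 0 in males and 0.05 in females, against 0 and 0 over all probes. None passed on every 20 mg array, where 0.0251% of all probes did. Of the 77 probes, 8 were well above background on all 6 arrays, so many of these values are from dim probes. On female 20 mg replicate 1 alone, 3 of the 77 (3.9%) were higher and 1 lower by 2.5-fold, with a median of 0.08. Over all 55681 probes, 1.47% were higher there and 1389 lower. The nearest, ENSMUST00000048921, lies 130.2 kb from the first member probe and was well above background on 0 arrays. Next come Alkbh8, a tRNA-modifying enzyme, with log2 differences of -0.43 in males and -2.52 in females, the latter 0.23 on female 20 mg replicate 1 alone. Cwf19l2 had -0.68 in males and 0.11 in females, with 0.21 on female 20 mg replicate 1. These 3 were chosen as the nearest by position.

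**Figure D4:**
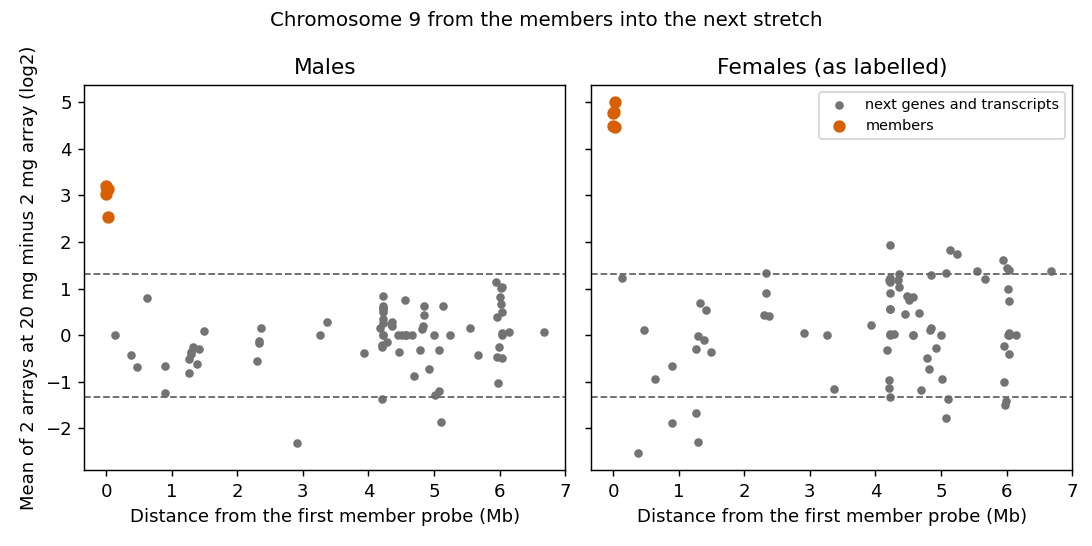
Mean log2 difference between the 20 mg arrays and the 2 mg array for each probe on chromosome 9, against its distance from the first member probe (Mb), with males on the left and females as labelled on the right. Dashed lines mark 2.5-fold in each direction. The 5 member probes lie at 2.53 to 3.2 in males and 4.47 to 4.99 in females. The 77 probes of the next stretch, 8 of them well above background on all arrays, have medians of 0 and 0.05.

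The first stretch of the other assembled chromosomes, from 3 Mb to 3.2 Mb on the autosomes and the X, holds 91 probes. By the fold rule 3 of them were higher and 0 lower in males, where 1.42% and 2.17% of all probes were. In females 15 (16.5%) were higher and 9 (9.89%) lower, where 8.65% and 10.3% of all probes were. Their median log2 differences were 0 in males and 0.15 in females. On female 20 mg replicate 1 alone, 3 (3.3%) were higher and 5 lower by 2.5-fold, with a median of 0. Over all 55681 probes, 1.47% were higher there and 1389 lower. On every 20 mg array 0 passed, where 0.0251% of all probes did. Of the 91 probes, 13 were well above background on all 6 arrays.

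Genes that keep pericentromeric repeats silent, or build the centromere beside them, had median log2 differences of 0.01 in males and -0.19 in females. Of the 36 genes of a heterochromatin list, 35 were tested with limma, 0 were called in either direction (adjusted p = 1 for each of those named here), and 0 had an unadjusted p under 0.05. Since that fit called 0% of all probes, the lack of calls says nothing about this list. By the fold rule 0 were higher or lower in males, where 1.42% and 2.17% of all probes were, and in females 0 were higher and 5 (13.9%) lower, where 8.65% and 10.3% of all probes were. These 5 were Suv39h1, a histone methyltransferase of pericentromeric chromatin, Atrx, a chromatin remodeller, Dnmt3a, a de novo DNA methyltransferase, and Cenpa and Cenpc1, proteins of the centromere itself. Of the 5, 1 (Dnmt3a) was well above background on the dim array labelled female. On female 20 mg replicate 1 alone 0 of the 36 genes were lower or higher by 2.5-fold. Over all 55681 probes, 1.47% were higher there and 1389 lower, so nothing is read from this count.

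Dnmt3a had log2 values of 13.11, 13.08 and 10.33 on the female arrays and 13.19, 13.53 and 12.56 on the male arrays, so its female difference comes from 1 array. Suv39h1 had 8.31 and 8.46 on the first 2 female arrays, was not well above background on the dim array labelled female, and had 8.44, 7.98 and 9.26 on the male arrays. Its relative Suv39h2 had 12.36, 12.72 and 13.89 on the female arrays and 12.58, 11.92 and 13.19 on the male arrays, where doses overlap. Cbx5, which binds the histone mark that these enzymes set, ranged from 9.89 to 10.37 over all 6 arrays. Dnmt1, which copies DNA methylation after replication, differed by 0.24 in males and -0.91 in females, and by -0.23 on female 20 mg replicate 1 alone. Uhrf1, its targeting partner, differed by 0.1 in males and -0.57 in females, and by -0.78 on that array. Hells, a remodeller needed for methylation of satellite DNA, differed by -0.4 in males and -0.07 in females, and by 0.79 on that array. Atrx differed by -0.1 in males and -1.36 in females, and by 0.42 on that array. Dnmt1, Hells and Atrx were not well above background on the dim array labelled female.

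Marker lists of other tissues were read on the same arrays, and their part in the members' values was not tested. The 4 choroid plexus genes had median log2 values of 9.24 on the female 2 mg array and 10.49 on the male one, against 10.42 to 10.87 at 20 mg, and 3 or 4 of them were well above background on each array. Among them Ttr, the transthyretin of the choroid plexus, was higher on every 20 mg array, by 4.95 on female replicate 1, 3.38 on the dim array labelled female, 1.05 on male replicate 1 and 1.04 on male replicate 2 on the log2 scale (2.6 ± 0.66 (SE) over both sexes, limma adjusted p = 1). Its difference on female replicate 1 and those of the members there, 1.34 to 2.17, were measured on the same pool. Folr1, a folate receptor, differed by 2.1 and 3 on the female arrays and by 0.15 and 0.61 on the male ones, while Otx2 differed by 0.61 and -0.06 and by -0.15 and -0.74. Kl differed by 0.74 and -2.19 on the female arrays and by 0.93 and -0.76 on the male ones. It was not well above background on the dim array labelled female. These 4 genes were named after their values were seen. The 4 red blood cell genes had 12.02 and 11.68 against 11.27 to 12.23. Forebrain genes had 9.92 and 8.57 at 2 mg and 6.87 to 10.74 at 20 mg, with 1 of 8 well above background on the dim array labelled female and 5 of 8 on male 20 mg replicate 2. Cerebellar genes had 9.57 and 9.59 at 2 mg and 9.24 to 10.36 at 20 mg. In bulk RNA, more cells with a transcript and more transcript per cell cannot be told apart.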

How the data were processed

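RNA of pooled pups was hybridized to 6 single-colour arrays. The deposited intensities come from Agilent Feature Extraction 10.7.3.1, per the labels (background subtracted, no scaling between arrays), with flags for outlier and well-above-background spots. The authors' deposited value table holds log2 values normalized and floored in BRB-ArrayTools, and 0 columns of other samples were used. The table's medians are 6.49 on 5 arrays and 5.23 on the dim array labelled female; whether its floor came before scaling is not stated.

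Here, 59305 spots of 55681 probes were averaged per probe without outlier spots, put on the log2 scale, quantile normalized and given a floor of 10. The variation filter kept 15247 probes (chi-square p at or under 0.05, at most 50% missing). The fold rule used 2.5-fold on group means. limma 3.58.1 (R 4.3.3) with trend was fitted to 4 groups with 2 residual degrees of freedom over probes well above background on at least 2 arrays, and each lone 2 mg array was assumed to vary like the others. The scripts were tested on simulated data with the same noise on every array. That test does not cover arrays that differ in brightness as these do. The number of arrays limits the precision.

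Members, gene lists, tests and the rule for named genes were chosen with earlier results of these data known. Named genes are the members, Gm10800, 8 genes of the heterochromatin list with any other of it called by either rule, and the 5 genes most like the members by Pearson's r (SD of at least 1 over the arrays). The brightest probe stood for each listed gene. Gm10800 probes were found by the array's description, since 0 probes lay at the chromosome 2 positions first set for them. Alternatives were other scalings, floors and background corrections, the authors' table, a filter on dim probes, each array left out, slide as a term, slide 1 alone and limma without trend. Unscaled signals and the later scan day alone were added after seeing the data.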

Additional observations from a re-analysis of the deposited data

How the results depend on the processing

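No member reversed under any alternative for which its difference was computed. With dose and sex as terms, the differences of the member probes were 3.5 to 4.06. With slide added as a term they were 0.02 to 0.73. The count of members higher by 2.5-fold in males was 4, and 3 with unscaled signals; in females it was 4, and 3 without the dim array labelled female or on the later scan day alone. The count on every 20 mg array was 4 and went to 2 with normexp background correction, 2 with the mean brightness without background correction, 3 with the authors' deposited value table and 2 with unscaled processed signals without the variation filter. On the slide of both 2 mg arrays alone, 1 member was 2.5-fold above both 2 mg arrays. With 1 array at 20 mg left out, this count was 3 to 4. The male log2 differences of the member and Gm10800 probes were 2.53 to 3.2 and fell to 0.97 to 1.65 without scaling; the female ones were 2.84 to 3.22 without scaling and 5.24 to 5.62 with arrays aligned at their 75th percentile.

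The limma count for the 2 Gm10800 probes was 0 in the main fit and in every alternative except leaving out female 20 mg replicate 1. That change of the count is not read, because only the male 20 mg group then held more than 1 array. The count without the dim array labelled female is not read for the same reason. With slide as a term, the differences of the Gm10800 probes were 0.11 and 0.2. The heterochromatin list gave 0 calls throughout. Fold counts by sex could not be fitted with slide as a term, the other chromosome 9 start probes had no probe to test, and each sex has 1 array at 2 mg, so depth of replication limits all of this. No paired analysis was possible because the dose groups of a sex share fewer than 2 replicate numbers.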
